A study of Mus musculus with 335 samples.

Results

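Adra1d, Adra2b and Adrb3 are 3 genes for adrenergic receptors, the cell-surface receptors for noradrenaline and adrenaline. They were taken by name from the deposited table of estimated counts and make up 3 of the 13448 genes with a symbol in it. Their counts, and the cells that carry them, are described across 4 groups of single cells sorted from mouse AGM (aorta-gonads-mesonephros), the tissue around the dorsal aorta in which the first haematopoietic stem cells arise.

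Every cell came from a Wild-type embryo at E11.5 (embryonic day 11.5) and was sequenced by Smart-seq2, a plate method that reads along whole transcripts. The HSC group held 65 cells sorted as EPCR+CD45+, a gate that contains the haematopoietic stem cells along with other cells. The Dorsal group held 93 cells and the Ventral group 89 cells, all sorted as Ngfr+Pdgfrb-, from the dorsal and the ventral side of the aorta. The Mesenchymal group held 88 Pdgfrb+Ngfr- cells from the ventral side. No treatment or engineered allele is named for any group. Cells of a group share 1 sequencing pool, and no animal or litter is named for them. A group therefore counts as 1 sample here, group and pool cannot be told apart, and no test between groups was possible.

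Adrenergic receptors sit in the cell membrane and pass the signal of catecholamines to G proteins. Receptors of the alpha-1 class, such as that of Adra1d, act mainly through Gq and phospholipase C and are known for contraction of vascular smooth muscle. Receptors of the alpha-2 class, such as that of Adra2b, act through Gi and lower cyclic AMP, whereas beta receptors, such as that of Adrb3, raise it through Gs. Adrb3 is best known from adipose tissue, where it drives lipolysis and heat production. Sympathetic neurons and adrenal chromaffin cells, which derive from the neural crest, make the ligands.

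The sorting genes followed the gates for the most part. Ngfr, the nerve growth factor receptor, reached 281 counts per 1000000 counts of the group (CPM) on the dorsal side and 90.9 CPM on the ventral side, against 7.32 CPM in Mesenchymal. Pdgfrb, the receptor used to sort mesenchyme, stood at 127 CPM in Mesenchymal and at most 2.05 CPM elsewhere, and Procr, which encodes EPCR, at 163 CPM in HSC and at most 1.45 CPM elsewhere. The Ngfr+ groups also held cells with macrophage markers. Csf1r, a macrophage growth factor receptor, reached at least 5 counts in 40.9% of Dorsal and 30.3% of Ventral cells. The other macrophage genes listed had lower shares. They ran from 7.53% (Adgre1) to 31.2% (C1qb) in Dorsal and from 12.4% (C1qa and Adgre1) to 16.9% (Cd68) in Ventral. With counts drawn down to an equal depth, as described below, the Csf1r shares were 20.7% in Dorsal and 17.5% in Ventral. Depth was uneven. The median cell total ran from 505916 counts in Mesenchymal to 1033890 in Dorsal, and the deepest Ventral cell alone held 18.5% of the counts of its group.

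All 3 receptors were low. Summed over the 4 groups, Adra1d had 602.7 estimated counts, Adra2b 543.8 and Adrb3 326.9, at percentiles of 8.25, 7.23 and 2.51 among the genes of the table. The median cell had 0 counts of every receptor in every group, so each level below comes from a minority of cells. The limits given beside levels and ratios are exact 95% limits for counting error; they cover neither differences between embryos nor amplification, since the reads carry no molecular identifiers. Levels in a group cannot tell fewer expressing cells from less RNA per cell, so shares of positive cells are given as well.

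**Figure D1:**
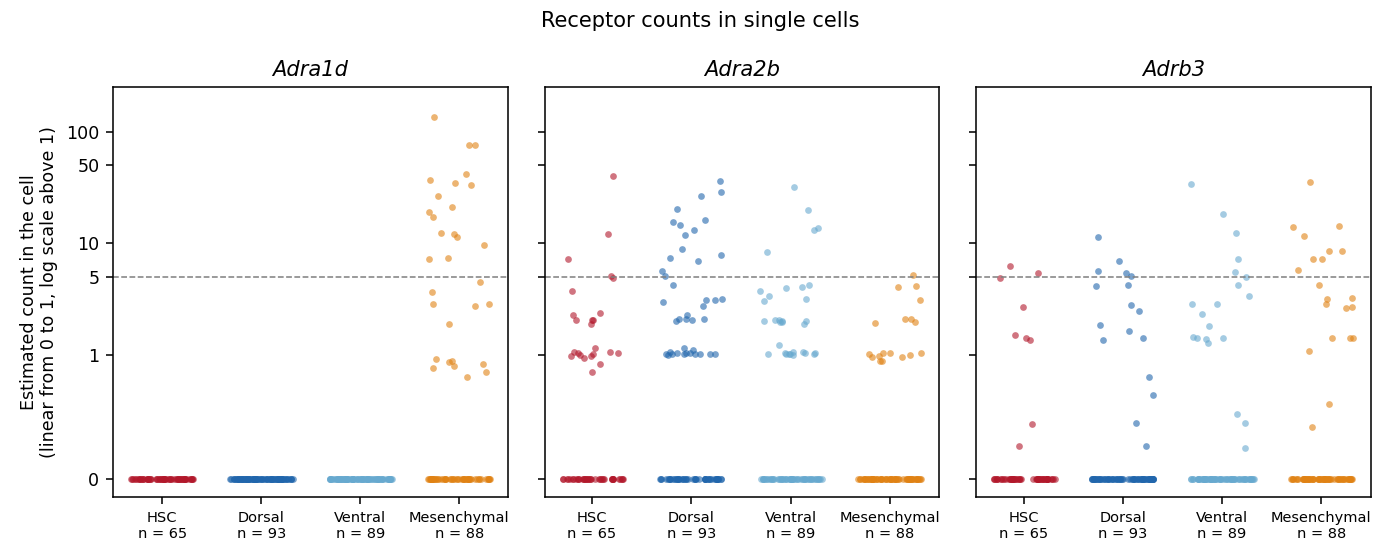
Estimated counts of each receptor in each cell of the 4 groups (1 point a cell, spread sideways at random within its group). The y axis is linear from 0 to 1 and logarithmic above 1, and the dashed line marks 5 counts. Adra1d lies at 0 in all HSC, Dorsal and Ventral cells, while Adra2b and Adrb3 have cells above 0 in all 4 groups.

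Adra1d, the alpha-1D receptor gene (ENSMUSG00000027335, chromosome 2, 131545850 to 131562283, minus strand, GRCm38), was found in the Mesenchymal group alone. The lowest Mesenchymal cell had 0 counts, the median cell 0 and the highest 136.5, and the sum over the 88 cells was 602.7 counts. In HSC, Dorsal and Ventral the lowest, median and highest cell all had 0 counts. Thus 0 of 247 cells outside the Mesenchymal group held any, which by a floor of 3 counts allows a level of up to 0.00995 CPM over their 301524344 counts. The same floor of 3 cells allows a share of up to 1.21% of cells with a count at their own, uneven depths; it does not limit the share of cells that express the gene.

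The Mesenchymal level of Adra1d was 8.79 CPM (8.10 to 9.52). Against a floor of 3 counts per group, that is 324-fold the floor of Ventral, 318-fold that of Dorsal and 242-fold that of HSC. The floor, here and above, takes counts as independent, whereas 1 Mesenchymal cell alone held 136.5 counts. These folds are therefore not lower limits on the difference between the groups. Within the group, 31 of 88 cells were above 0, 17 had at least 5 counts and 14 had at least 10. The cell with the most counts held 22.7% of them and the top 3 cells 47.7%. Without the top cell the level was 6.94 CPM, and in cells with odd and even numbers of the i7 sequencing index it was 8.74 and 8.83 CPM.

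To compare groups at one depth, counts were drawn at random from each cell down to 310000, and cells left with 5 or more were called positive. Adra1d was positive in 13 of 69 Mesenchymal cells, or 18.8% (10.4 to 30.1, exact Clopper-Pearson limits), and in 0 of 64 HSC, 0 of 92 Dorsal and 0 of 80 Ventral cells. The upper Clopper-Pearson limits of these zeros are 5.60%, 3.93% and 4.51%, and the floor of 3 cells gives 4.69%, 3.26% and 3.75%. Without thinning, 17 of 88 Mesenchymal cells were positive, or 19.3%.

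The cells with Adra1d carried mesenchymal genes, as did most cells of the group. All 13 positive cells were also positive for Prrx1, a transcription factor of mesenchyme, beside 88.4% of all 69 thinned cells. Pdgfrb was positive in 12 (76.8% of all cells), Pdgfra, a receptor of fibroblast precursors, in 11 (82.6%), and Twist2, another transcription factor of mesenchyme, in 8 (65.2%). Of the smooth muscle and pericyte genes, Tagln, an actin-binding protein of contractile cells, was positive in 12 of the 13 cells, or 92.3%, beside 60.9% of all cells. Rgs5, a pericyte marker, was positive in 10 (63.8% of all cells), Acta2, smooth muscle actin, in 7 (44.9%), and Cnn1, calponin, in 6 (34.8%). Kcnj8, a potassium channel of pericytes, was positive in 0 of the 13 cells and 8 of all 69, and Myh11, the smooth muscle myosin of mature muscle, in 0 of the 13 and 5 of all 69. In the reverse direction, Adra1d was positive in 12 of 42 Tagln-positive cells, or 28.6%, and in 1 of 27 Tagln-negative cells.

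Read as levels over all cells, the split by Tagln was wide. The 57 Mesenchymal cells with at least 5 counts of Tagln had Adra1d at 11.4 CPM (10.5 to 12.4), and the other 31 cells at 1.27 CPM (0.803 to 1.91). The Tagln-positive cells thus held 96.2% of Adra1d counts and 74% of all counts. A split by Acta2 went the other way, with 8.06 CPM (7.28 to 8.91) in 53 positive and 10.5 CPM (9.15 to 12) in 35 negative cells, but this order rested on the top Adra1d cell, which had fewer than 5 counts of both Acta2 and Pdgfrb: without it the values were 8.06 and 4.10 CPM. By Pdgfrb, 70 positive cells stood at 9.03 CPM (8.22 to 9.89) and the other 18 at 8.09 CPM (6.81 to 9.55), and without the top cell these were 9.03 and 0.225 CPM, so the width of that split also rested on 1 cell.

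The highest Adra1d level in a marker split with at least 10 cells on each side was in Emcn-positive cells. Emcn encodes endomucin, a mucin of endothelium. The 20 Emcn-positive Mesenchymal cells had 26.8 CPM of Adra1d (23.9 to 29.9) and the other 68 cells 5.13 CPM (4.56 to 5.76). Without the top cell these were 17 and 5.13 CPM. The other endothelial genes listed were uneven in the group. Cdh5 stood at 0.043 CPM and Tie1 at 0.354 CPM, and neither reached 5 counts in any of the 88 cells. Tek stood at 0.475 CPM and Esam at 2.62 CPM, each with at least 5 counts in 2.27% of cells. Kdr stood at 14.8 CPM, with at least 5 counts in 7.95% of cells. By contrast, the 25 cells positive for Wt1, a gene of the coelomic epithelium and its derivatives, had 3.03 CPM of Adra1d and the other 63 cells 10.4 CPM. These splits were chosen after the values were seen, from 19 markers with at least 10 cells on each side.

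**Figure D2:**
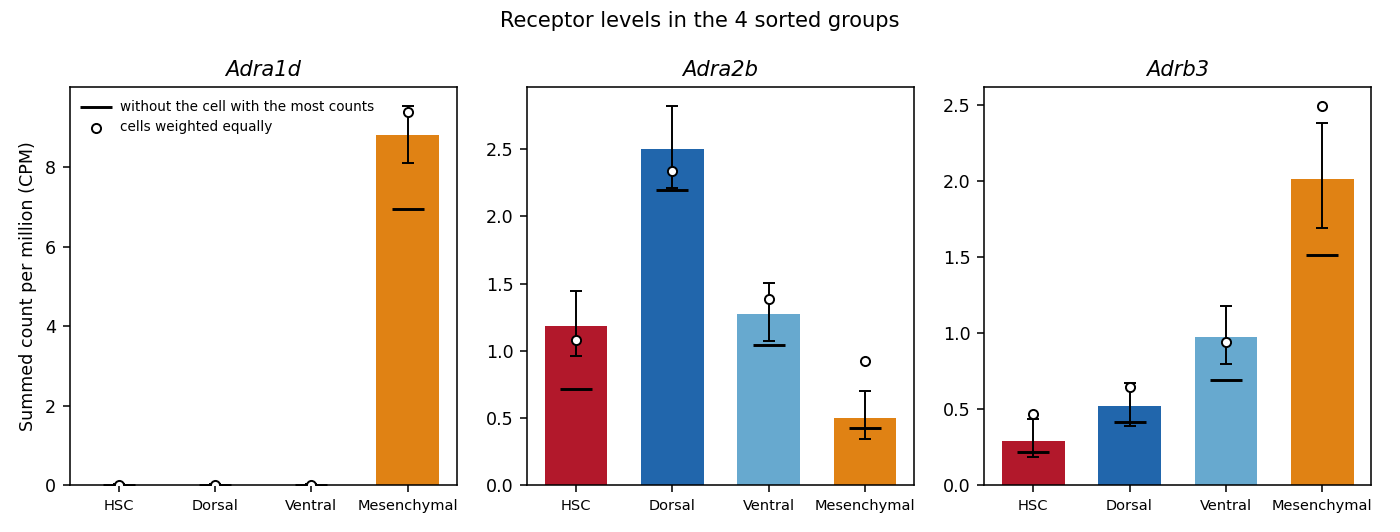
Level of each receptor in the 4 groups (bars, summed counts in CPM) with exact 95% Poisson limits (error bars, counting error only). Dashes give the level without the cell that has the most counts, and open circles the mean over cells weighted equally. Adra1d reaches 8.79 CPM in Mesenchymal, Adra2b is highest in Dorsal at 2.50 CPM, and Adrb3 runs from 0.294 CPM in HSC to 2.02 CPM in Mesenchymal. Each panel has its own scale.

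Adra2b, the alpha-2B receptor gene (ENSMUSG00000058620, chromosome 2, 127363208 to 127367221, plus strand, a single exon), was detected in all 4 groups and was highest in the Dorsal Ngfr+ cells. The highest HSC cell had 39.8 counts, the highest Dorsal cell 36.2, the highest Ventral cell 32 and the highest Mesenchymal cell 5.15, while the lowest and the median cell had 0 in each group. Cells above 0 numbered 24 of 65 in HSC, 41 of 93 in Dorsal, 32 of 89 in Ventral and 18 of 88 in Mesenchymal. The summed counts were 97.6, 271.1, 140.8 and 34.4, in that order.

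As levels, Adra2b had 2.50 CPM (2.21 to 2.82) in Dorsal cells, 1.27 CPM (1.07 to 1.5) in Ventral cells, 1.18 CPM (0.959 to 1.44) in HSC and 0.502 CPM (0.348 to 0.700) in Mesenchymal. Dorsal was above Ventral by a ratio of 1.96 (1.60 to 2.43), above HSC by 2.11 (1.67 to 2.69) and above Mesenchymal by 4.99 (3.49 to 7.33). Ventral and HSC, the neighbours in the middle of the order, differed by a ratio of 1.08 with limits of 0.826 to 1.41, which include 1. Ventral was above Mesenchymal by a ratio of 2.54 (1.74 to 3.8) and HSC by 2.36 (1.58 to 3.59).

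The HSC level leaned on 1 cell, which held 40.8% of the Adra2b counts of its group; without it the level was 0.715 CPM. Genes of neural cells were measured in that pool too. Its 6 sympathoadrenal genes summed to 8.18 CPM, of which Gata3 made 8.07, its 5 glial genes to 0.365 CPM, and its 6 neuronal genes to 26.3 CPM, of which Elavl4 made 20.9. Of these, 2, 3 and 2 genes were at 0, Sox10 and Th among them. Their part in the Adra2b counts of HSC was not tested. The Ventral level differed by index number, at 1.85 CPM in cells with odd and 0.664 CPM in cells with even i7 indices. Accordingly the ratio of Dorsal to Ventral was 1.49 with odd and 3.31 with even i7 numbers, and the ratio of Ventral to Mesenchymal 3.8 and 1.29. With every cell weighted equally, Mesenchymal stood at 0.926 CPM. The ratio to Mesenchymal was then 2.52 for Dorsal, 1.5 for Ventral and 1.17 for HSC.

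After thinning, Adra2b was positive in 5 of 92 Dorsal cells, or 5.43% (1.79 to 12.2), in 1 of 64 HSC cells, or 1.56% (0.0396 to 8.40), and in 0 of 80 Ventral and 0 of 69 Mesenchymal cells. The HSC cell was positive for Elavl4, as were 12 of all 64, but for no other neuronal, sympathoadrenal or glial gene of the lists. It was also positive for Procr and for the haematopoietic progenitor genes Runx1, Gfi1, Myb, Mecom, Gata2 and Kit, but not for Spn. The Clopper-Pearson limits of these shares overlap between all groups. Overlap is not a test of a difference, and none was possible with 1 sample a group. Without thinning the shares were 16.1% in Dorsal, 6.15% in HSC, 5.62% in Ventral and 1.14% in Mesenchymal.

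**Figure D3:**
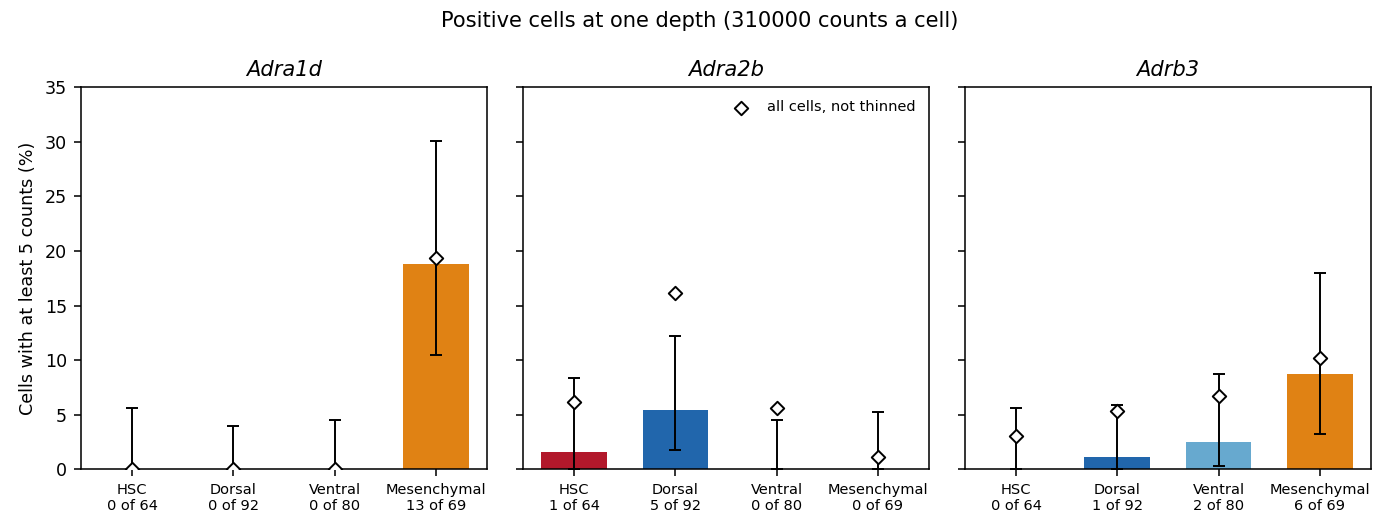
Share of cells with at least 5 counts of each receptor after thinning to 310000 counts a cell (bars, with exact 95% Clopper-Pearson limits), and without thinning (diamonds). Labels under the bars give positive cells of all cells kept. Adra1d is positive in 13 of 69 Mesenchymal cells and in none of the other groups, while the limits of Adra2b overlap across all groups.

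Within the Dorsal group, Adra2b lay mostly in cells with Gata3, a transcription factor of sympathetic precursors, and in cells with Fabp7, a fatty acid carrier of glia and Schwann cell precursors. The 69 Gata3-positive cells stood at 3.25 CPM (2.86 to 3.67) and the other 24 cells at 0.511 CPM (0.287 to 0.841). They held 94.4% of Adra2b counts and 72.7% of all counts. The 73 Fabp7-positive cells stood at 2.99 CPM (2.64 to 3.37) and the other 20 cells at 0.445 CPM (0.206 to 0.838). All 5 thinned Adra2b-positive cells were positive for Fabp7 (76.1% of all 92 cells), 4 for Sox10 (85.9%), 4 for Dbh (45.7%), 4 for Th (30.4%) and 3 for Gata3 (59.8%). The Gata3 split was thus not seen among thinned cells, where Adra2b was positive in 3 of 55 Gata3-positive and 2 of 37 Gata3-negative cells. Without thinning, macrophage genes split the Dorsal cells in both directions. The 11 cells with Mrc1, the macrophage mannose receptor, had 0.374 CPM (0.124 to 0.862) of Adra2b and the other 82 cells 2.81 CPM (2.48 to 3.17). The 38 cells with Csf1r had 3.46 CPM and the other 55 cells 1.81 CPM. This Csf1r split was not seen among thinned cells, where Adra2b was positive in 0 of 19 Csf1r-positive and 5 of 73 Csf1r-negative cells. For Mrc1 it was 0 of 7 and 5 of 85, and for Cd68, another macrophage gene, 1 of 16 and 4 of 76. These markers were picked after the values were seen.

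Ventral cells showed the same side of the Gata3 split, with 1.79 CPM of Adra2b in 56 positive and 0.512 CPM in 33 negative cells. Glial genes split the Ventral cells as widely: the 44 cells with Sox10, the transcription factor of neural crest glia, stood at 2.25 CPM (1.85 to 2.72) and the other 45 at 0.534 CPM (0.369 to 0.748). The enzymes of noradrenaline synthesis split them the other way. The 17 Ventral cells with Th, tyrosine hydroxylase, had 0.446 CPM and the other 72 had 1.44 CPM, and the 48 with Dbh, dopamine beta-hydroxylase, had 0.918 CPM and the other 41 had 1.88 CPM. In Dorsal cells the Th split was reversed, at 3.96 CPM in 35 positive and 1.84 CPM in 58 negative cells.

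**Figure D4:**
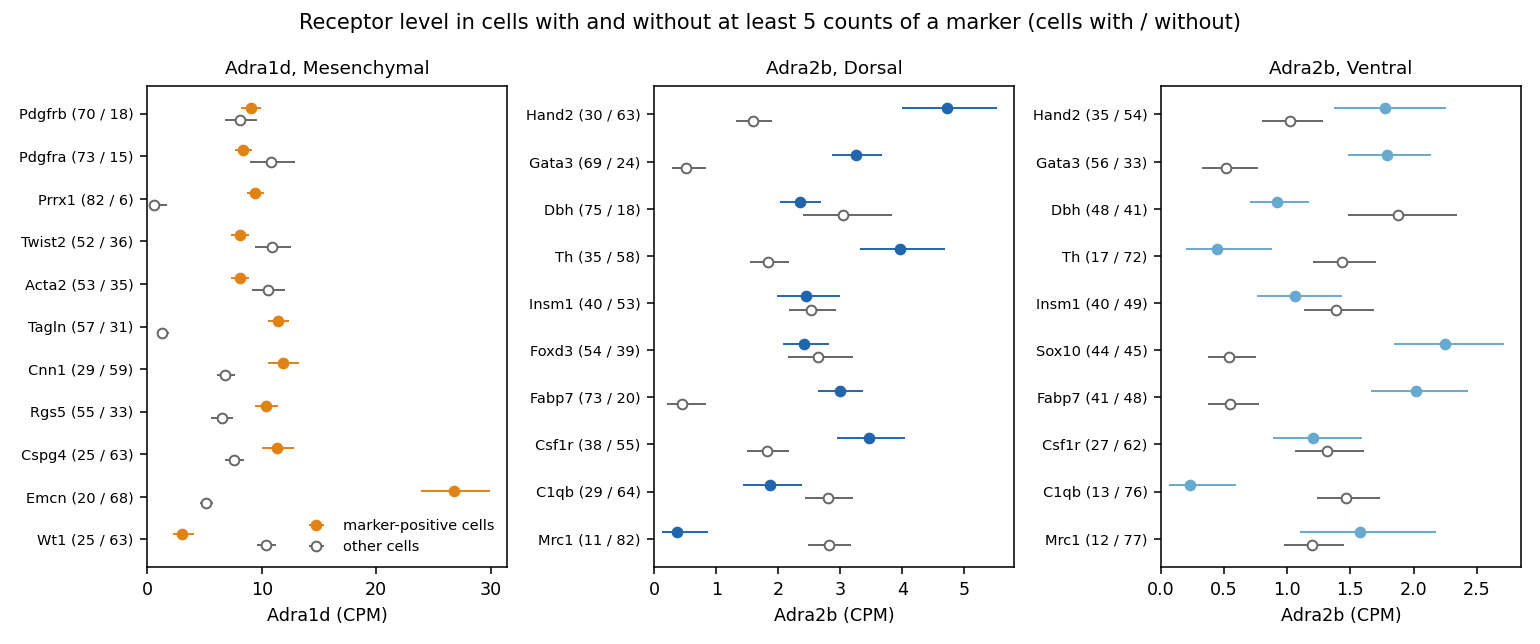
Level of Adra1d in Mesenchymal cells and of Adra2b in Dorsal and Ventral cells (x axes, CPM), for cells with at least 5 counts of a marker (filled points) and the other cells (open points), with exact 95% Poisson limits. Numbers beside each marker are cells with and without it. Adra1d is 11.4 CPM in Tagln-positive cells against 1.27 CPM, and Adra2b in Dorsal is 3.25 CPM in Gata3-positive cells against 0.511 CPM.

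The sides of the aorta differed in how many cells carried these markers: Sox10 reached 5 counts in 94.6% of Dorsal and 49.4% of Ventral cells, and Gata3 in 74.2% and 62.9%. Within Sox10-positive cells the levels were 2.56 CPM in 88 Dorsal and 2.25 CPM in 44 Ventral cells, a ratio of 1.14 with limits of 0.905 to 1.44, which include 1. These limits cover counting error alone. The comparison within Sox10-positive cells, here and for Adrb3 below, was added after the data were seen.

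Adrb3, the beta-3 receptor gene (ENSMUSG00000031489, chromosome 8, 27225776 to 27250616, minus strand), was detected in all 4 groups and was highest in Mesenchymal cells. The highest HSC cell had 6.25 counts, the highest Dorsal cell 11.5, the highest Ventral cell 34 and the highest Mesenchymal cell 35.7, and the lowest and the median cell had 0 in each group. Cells above 0 numbered 9 of 65 in HSC, 17 of 93 in Dorsal, 20 of 89 in Ventral and 21 of 88 in Mesenchymal. The summed counts were 24.2, 56.5, 107.9 and 138.2, in that order.

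The level of Adrb3 was 2.02 CPM (1.69 to 2.38) in Mesenchymal, 0.976 CPM (0.801 to 1.18) in Ventral cells, 0.522 CPM (0.395 to 0.676) in Dorsal cells and 0.294 CPM (0.189 to 0.436) in HSC. Mesenchymal was above Ventral by a ratio of 2.07 (1.59 to 2.68), above Dorsal by 3.87 (2.82 to 5.36) and above HSC by 6.86 (4.43 to 11). Ventral was above Dorsal by 1.87 (1.34 to 2.63) and above HSC by 3.32 (2.12 to 5.40). Dorsal and HSC, the lowest neighbours, differed by a ratio of 1.78 (1.09 to 2.99) on only 80.8 counts together, and in cells with odd i7 indices the ratio was 1.02. Adrb3 thus stood in the reverse order of Adra2b across Mesenchymal, Ventral and Dorsal, while HSC was lowest for Adrb3 and between the extremes for Adra2b.

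The top cell held 25.8% of Adrb3 counts in Mesenchymal and 31.5% in Ventral, and without these cells the levels were 1.52 and 0.692 CPM. The order of the groups was the same without the top cell of each group, in cells of odd and of even i7 number and with cells weighted equally. Its closest neighbours were Dorsal and HSC with odd i7 numbers, at 0.410 and 0.402 CPM. Within Sox10-positive cells, Adrb3 stood at 0.931 CPM in Ventral and 0.511 CPM in Dorsal, a ratio of 1.82 (1.20 to 2.76). This order of the sides rests on 44.3 Ventral and 53.7 Dorsal counts. Its limits cover counting error alone, and it is not given without the top cell.

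After thinning, Adrb3 was positive in 6 of 69 Mesenchymal cells, or 8.70% (3.26 to 18), in 2 of 80 Ventral, 1 of 92 Dorsal and 0 of 64 HSC cells. The Clopper-Pearson limits overlap between all groups. All 6 positive Mesenchymal cells were positive for Pdgfrb (76.8% of all 69 cells), 4 for Tagln (60.9%) and 2 for Acta2 (44.9%). Of 4 adipocyte genes, 2 had an entry: Plin1, which coats lipid droplets, stood between 0.888 and 1.17 CPM in the 4 groups, and Fabp4, a fatty acid carrier also made by endothelium, at 9.73 CPM in HSC and 0.199 CPM in Mesenchymal.

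Unlike Adra1d, Adrb3 was not higher in Tagln-positive Mesenchymal cells, with 1.93 CPM (1.56 to 2.35) in 57 positive and 2.27 CPM (1.63 to 3.09) in 31 negative cells. The top Adrb3 cell held 25.8% of the Mesenchymal counts, and the Tagln levels without it are not given, so this order can rest on 1 cell. Wt1-positive cells had 4.36 CPM (3.36 to 5.56) and the other cells 1.37 CPM (1.08 to 1.72), the opposite side of the split from Adra1d. Without the top Adrb3 cell the Wt1 values were 2.08 and 1.37 CPM. The 10 cells with Kcnj8, a pericyte potassium channel, had 0.0394 CPM of Adrb3 and the other 78 cells 2.37 CPM. Only 21 of all 88 Mesenchymal cells were above 0 for Adrb3, so the Kcnj8 value rests on few counts. In Ventral cells, Adrb3 was lower in the 48 cells with Dbh, at 0.427 CPM, than in the other 41, at 1.91 CPM. The top Adrb3 cell, with 31.5% of the Ventral counts, lay among the cells without Dbh, and levels without it are not given here. The Wt1, Kcnj8 and Dbh splits were picked after the values were seen.

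Some cells held more than 1 receptor. In the Mesenchymal group 41 of 88 cells had at least 1 count of any receptor, and 11 of these had exactly 2 receptors and 1 had all 3. Adra1d was found with Adrb3 in 6 cells, from 23 cells with Adra1d and 19 with Adrb3. In Dorsal, Adra2b was found in 7 of the 13 cells with Adrb3 and in 41 of all 93 cells. In Ventral it was found in 7 of the 17 cells with Adrb3 and in 32 of all 89, and in HSC in 2 of 7 and in 19 of all 65. These cells were counted at 1 count or more, without thinning.

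Divided by the length of the longest annotated transcript, so that genes can be set side by side, Adra1d in Mesenchymal stood at 4.63 CPM per kilobase. Adrb3 there was 0.721 and Adra2b 0.125 CPM per kilobase. In Dorsal, Adra2b was 0.623 and Adrb3 0.187 CPM per kilobase, in Ventral the values of Adra2b and Adrb3 were 0.317 and 0.349, and in HSC 0.295 and 0.105. Of the 3 receptors, the leading one per length was therefore Adra1d in Mesenchymal and Adra2b in Dorsal and HSC. Over all Ventral cells Adra2b and Adrb3 were nearly equal. Before division by length, however, Ventral Adra2b stood at 1.85 CPM with odd and 0.664 CPM with even i7 numbers, and Adrb3 at 0.973 and 0.979 CPM.

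Set against all genes, members were counted as apart when the log2 ratio of (CPM + 1) passed 2-fold in either direction, for genes that reached 100 counts over both groups. In Dorsal against Ventral 0 of 2 members that reached the minimum were apart, where 10.1% of 13152 genes were higher in Dorsal and 8.3% in Ventral. The log2 folds on this scale, which understates low genes, were 0.62 for Adra2b and -0.38 for Adrb3. In Ventral against Mesenchymal 1 of 3 members, Adra1d, was higher in Mesenchymal with a log2 fold of -3.29, beside 12.9% of genes; 0 of 3 were higher in Ventral, beside 17.1%. In Dorsal against Mesenchymal, Adra2b was higher in Dorsal (1.22), beside 17.5% of genes, and Adra1d in Mesenchymal, beside 9.68%.

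In HSC against Dorsal 0 of 1 members was apart, beside 11.3% of genes higher in HSC and 25.3% in Dorsal. In HSC against Ventral it was 0 of 2, beside 14.1% and 24.5%. In HSC against Mesenchymal 2 of 3 members, Adra1d and Adrb3 (-1.22), were higher in Mesenchymal, beside 22.6% of genes, and 0 of 3 higher in HSC, beside 16.6%. Comparisons that share a group share its cells. With so few members, their counts are a description and are not read against these shares.

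The genes whose counts most resembled each receptor were ranked by Pearson r of log2(CPM/10 + 1) over all cells, among 11028 genes. The points share groups and depth, so r is a description. For Adra1d the 5 highest were Plau (0.53), Trabd2b (0.52), Ntrk2 (0.49), Bmp4 (0.48) and Pdgfrb (0.48), each highest in Mesenchymal: Ntrk2, a neurotrophin receptor, stood at 161 CPM there and at most 1.70 CPM elsewhere. Within Mesenchymal cells alone, Plau, the urokinase gene, had r of 0.60 with Adra1d and Pdgfrb 0.29.

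For Adra2b the 5 were Akap2, Nell2 and Shc4 (each 0.31), Gfra1 (0.30) and Stard13 (0.29). Nell2, a secreted protein of neurons, and Gfra1, the receptor subunit for the glial factor GDNF, both stood at 0 CPM in HSC, where Adra2b was present; Nell2 reached 204 CPM in Dorsal and Gfra1 63.7 CPM. For Adrb3 they were Tnc (0.33), Bmp4 (0.29), Pmp22 (0.28), Pid1 (0.27) and Ahnak (0.26). Tnc, the matrix protein tenascin C, had the order of groups that Adrb3 had, from 132 CPM in Mesenchymal through 83 in Ventral and 7.41 in Dorsal to 0 in HSC. In sparse counts the values for Adra2b and Adrb3 are too weak to set these genes apart.

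The other genes of the pathway were described from lists of ligand enzymes, G proteins, cyclases and targets. The enzymes and carriers of catecholamines marked the Ngfr+ groups. Among the 10 with an entry, 7 passed 2-fold towards Dorsal and 0 towards Mesenchymal, beside 17.5% and 9.68% of all genes. Their median log2 fold was 2.74, beside 0.15 over all genes. Between Dorsal and Ventral, 1 of 10 was higher in Dorsal and 0 in Ventral, beside 10.1% and 8.3% of all genes. Dbh, which makes noradrenaline, stood at 356 CPM in Dorsal, 279 in Ventral, 0.0673 in HSC and 0 in Mesenchymal, and Cyb561, the electron carrier of its vesicles, at 72.8, 43.3, 5.27 and 0.0208 CPM in the same order. Slc18a2, the vesicular monoamine transporter, was highest in HSC at 176 CPM, against 37 CPM in Dorsal. Dorsal, the group with the most Dbh, was also that with the most Adra2b, and Adra1d lay in the group where Dbh had 0 counts. HSC, with hardly any Dbh, stood at 1.18 CPM of Adra2b, beside 1.27 CPM in Ventral. Without thinning, cells with Dbh had the lower Adra2b level in Ventral. Among thinned Dorsal cells, a different measure, Adra2b was positive in 4 of 42 Dbh-positive and 1 of 50 Dbh-negative cells. As 0 of 80 thinned Ventral cells were positive for Adra2b, the sides cannot be compared by that measure. A link between Dbh and the receptors was not tested.

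G protein alpha subunits of each receptor class were measured in every group. Of 11 genes, 3 were higher in Dorsal and 1 in Mesenchymal between these groups, beside 17.5% and 9.68% of all genes (median log2 fold 0.16 beside 0.15). Of the Gi class that alpha-2 receptors use, Gnai1 stood at 31.2 CPM in Dorsal, 11.8 in Ventral, 7.18 in Mesenchymal and 1.53 in HSC, and Gnao1, its neuronal relative, at 18.4, 9.82, 1.65 and 0.685 CPM. The more abundant members of that class had other orders: Gnai2 stood between 133 CPM in HSC and 160 CPM in Dorsal, Gnai3 was highest in Ventral at 372 CPM against 251 in Dorsal, and Gnaz was highest in HSC at 35.6 CPM. Of the Gq class that alpha-1 receptors use, Gnaq stood at 93.7 CPM in Dorsal and 49 in Mesenchymal, and Gna11 at 121 and 111 CPM. The scarcer Gna14 was highest in Mesenchymal at 8.73 CPM, with at least 5 counts in 5 of 88 cells, and Gna15, the haematopoietic member, was highest in HSC at 19.1 CPM. Gnas, the Gs subunit of beta receptors, stood at 1522 CPM in Mesenchymal, 1462 in Dorsal, 1092 in Ventral and 612 in HSC.

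Adenylyl cyclases, which make cyclic AMP, were mostly lower in HSC than in Mesenchymal and Dorsal. Of 7 that reached the count minimum, 6 were higher in Mesenchymal than in HSC and 1 in HSC (median log2 fold -1.98 beside -0.10 for all genes), beside 22.6% and 16.6% of all genes. Against Dorsal, 6 of 8 were higher in Dorsal and 2 in HSC, beside 25.3% and 11.3% of genes. Against Ventral, 2 of 6 were higher in Ventral and 1 in HSC, beside 24.5% and 14.1%. Adcy2 stood at 14.5 CPM in Mesenchymal, 1.28 in Dorsal, 0.270 in Ventral and 0 in HSC, so that its highest group was that of Adra1d and Adrb3. Adcy7 was highest in HSC at 53.2 CPM and stood at 1.86 CPM in Mesenchymal. Adcy4 stood at 1.85 CPM in HSC, between 0.0444 in Dorsal, 0.479 in Ventral and 8.84 in Mesenchymal. Between Dorsal and Ventral, 3 of 7 were higher in Dorsal, beside 10.1% of all genes, but 1 of 7 without the deepest cell of each group.

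Phospholipase C beta, the effector of alpha-1 receptors, did not follow Adra1d. Of 4 genes, 0 were 2-fold apart between Dorsal and Mesenchymal (median log2 fold -0.24), where 17.5% of all genes were higher in Dorsal and 9.68% in Mesenchymal. Plcb1 stood at 116 CPM in Ventral against 7.30 in Mesenchymal, a log2 fold of 3.82, which became -0.45 without the deepest cell of each group. Of 6 subunits of protein kinase A, 0 were apart between Dorsal and Mesenchymal, or 1 without the deepest cell of each group, beside the same shares. Between HSC and Mesenchymal 1 was higher in each group, beside 16.6% of all genes higher in HSC and 22.6% in Mesenchymal. Prkaca, a catalytic subunit, had 64.8 CPM in Dorsal cells and 27.2 CPM in Ventral cells; its log2 fold of 1.22 became 0.77 once the deepest cells were left out.

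Among the genes that end the signal, the phosphodiesterases break down cyclic AMP. Of 8 cyclic AMP phosphodiesterases that reached the minimum, 4 were higher in HSC than in Mesenchymal and 0 lower, or 5 and 1 with cells weighted equally, beside 16.6% and 22.6% of all genes. Their median log2 fold was 1.17, beside -0.10 for all genes. Pde3a stood at 90.1 CPM in Mesenchymal, 46.9 in HSC, 8.97 in Ventral and 1.24 in Dorsal, and was at least 5 counts in 63 of 88 Mesenchymal and 4 of 93 Dorsal cells. Of 7 receptor kinases and arrestins, 3 were higher in HSC and 1 in Mesenchymal, beside 16.6% and 22.6% of all genes. Their median log2 fold was -0.20, beside -0.10 for all genes. It was -0.03 without the deepest cell of each group and 0.63 with cells weighted equally, so no side is read from it. Grk2, the kinase known for beta receptor desensitisation, was highest in HSC at 111 CPM and lowest in Mesenchymal at 19 CPM, and Arrb2, beta-arrestin 2, stood at 1.16 CPM in Mesenchymal and between 6.80 and 7.57 CPM in the other groups.

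Of 13 effectors and target genes of cyclic AMP, 7 were higher in HSC than in Mesenchymal and 0 lower, or 6 and 1 with cells weighted equally, beside 16.6% and 22.6% of all genes. Their median log2 fold was 1.05, beside -0.10 for all genes. Between Dorsal and Mesenchymal, 4 were higher in Dorsal and 1 in Mesenchymal, beside 17.5% and 9.68%. Nr4a1, an early response gene, stood at 119 CPM in HSC and 24.5 CPM in Mesenchymal. Rapgef4, a cyclic AMP sensor, stood at 58.5 CPM in Ventral against 8.04 CPM in Dorsal, a log2 fold of -2.72 from Dorsal to Ventral that became 1.30 without the deepest cells. None of 5 dopamine receptor genes had an entry in the table as used here.

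**Figure D5:**
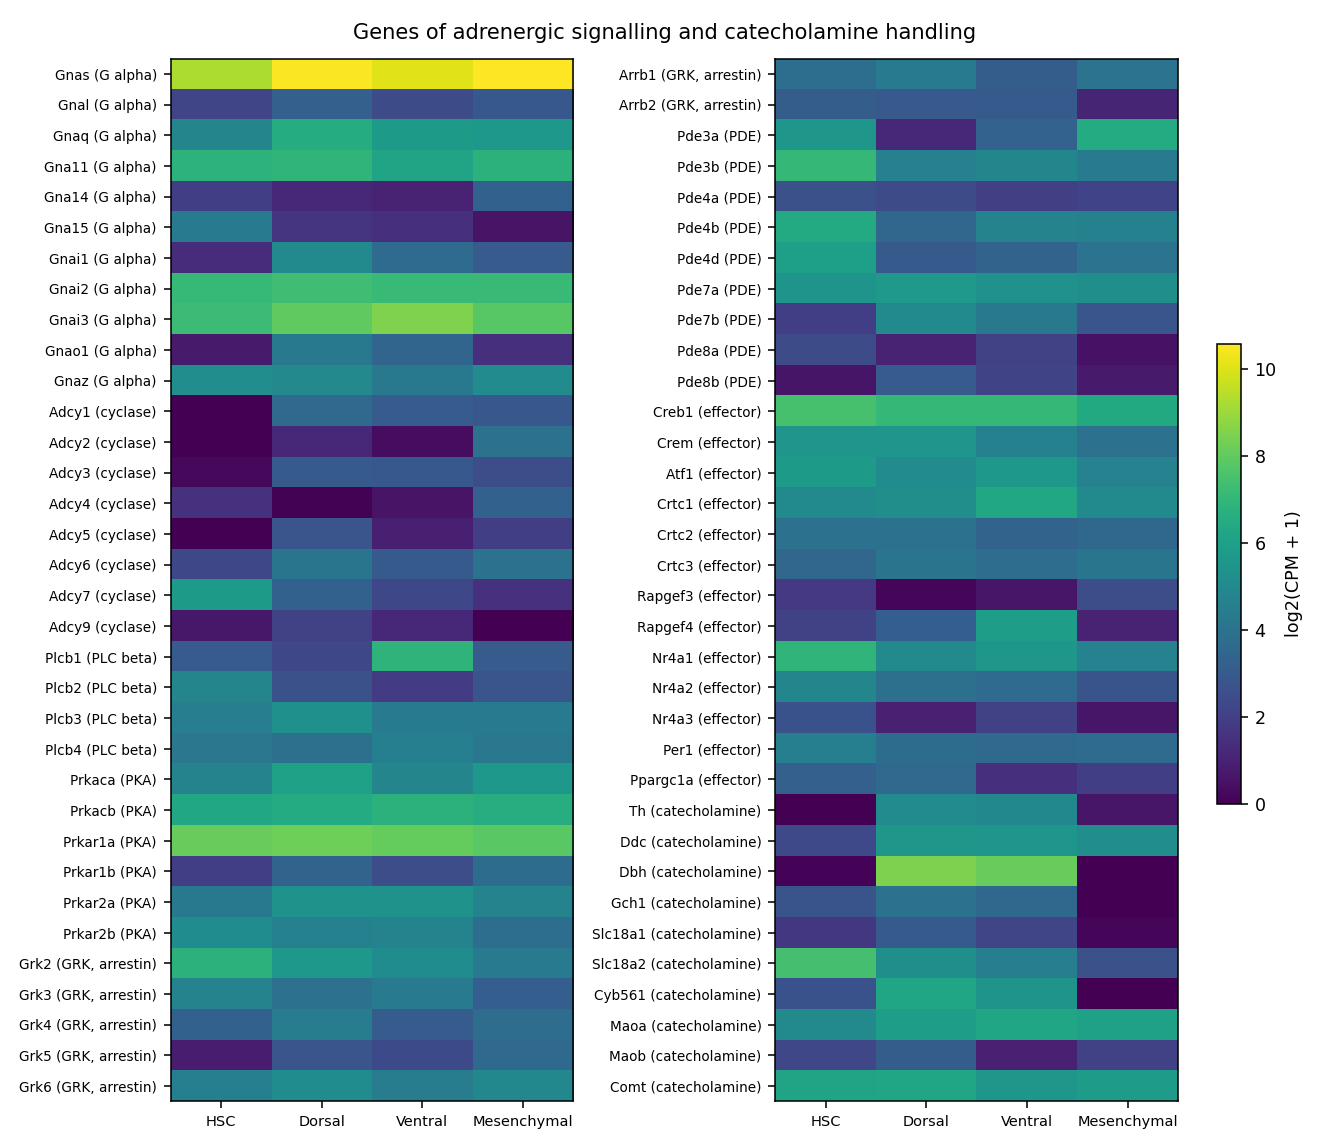
Levels of the pathway genes in the 4 groups as log2(CPM + 1) of summed counts, with the list of each gene in brackets. Colours compare groups within a gene and are not scaled for length. Catecholamine genes such as Dbh and Th are high in Dorsal and Ventral, while Adcy2 and Pde3a peak in Mesenchymal; Plcb1 and Rapgef4 in Ventral rest on 1 deep cell.

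Some reads cannot be given to 1 gene by sequence. Of the stretches of 31 bases in the annotated transcripts, 6.31% of those of Adra1d, 1.03% of those of Adra2b and 22% of those of Adrb3 also occur in transcripts of another gene, and none in another of the 3 receptors. For Adra1d all of these lie in the antisense gene Gm14285, and for Adrb3 722 of 740 lie in the antisense gene Gm45470. The strand setting is not given in the sources used here, the antisense genes were not analysed here, and their part in the counts of Adra1d and Adrb3 was not tested.

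Cells of a pool that share an index with the top cell of a receptor were set beside the other cells of the pool. For Adra1d, 3 of 16 cells sharing an index with the top cell were above 0, against 27 of 71 others. For Adra2b in Dorsal it was 7 of 17 against 33 of 75, and for Adrb3 in Mesenchymal 3 of 16 against 17 of 71.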

How the data were processed

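Single cells were sequenced by Smart-seq2, 1 cell a sample, per the labels' protocols. The authors deposited estimated counts per gene made with kallisto 0.43.1 on GRCm38, per the submitters' processing notes; transcript summing, filters and strand are not given in the sources used here. They also deposited log2 values, which the 2 tables show to be log2 of the count divided by a factor of the cell, plus 1. Of 14109 entries, 661 without a symbol, with 2.96% of counts, were left out.

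Counts were summed per group (68560754.5 to 110598792 in all) and divided by the total to give CPM, with exact Poisson 95% limits and conditional limits on ratios. Positive cells were counted at 5 or more counts after thinning to 310000; 1 HSC, 1 Dorsal, 9 Ventral and 19 Mesenchymal cells were shallower and left out. Folds used a pseudocount of 1 CPM and a minimum of 100 counts over both groups. Sequence overlaps came from GENCODE M21 transcripts. From the lists, up to 4 genes a comparison with the largest folds were named, and 5 like genes a receptor. Calculations used Python 3.11.15, NumPy 2.4.6, SciPy 1.17.1 and pandas 2.3.3, were tested on simulated counts, and gave no p-values, as each group is 1 sample. The receptors and lists were chosen with earlier results of these data known; some genes of the lists are not reported here. Alternatives covered the pseudocount, thinning, depth, odd and even i7 index numbers, single cells, weighting, totals and the deposited log2 table.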

Additional observations from a re-analysis of the deposited data

How the results depend on the processing

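No paired analysis was possible because each group is 1 pool and the numbers of its cells, given in accession order, tie no cell to one of another group. Of 72 alternative counts of members 2-fold apart, 66 equalled the count reported. With a pseudocount of 0.1 CPM, 2 members were apart in Ventral against Mesenchymal, 1 in HSC against Dorsal and 1 in HSC against Ventral. In HSC against Mesenchymal 1 was apart with odd and 1 with even i7 numbers, where fewer members reached 100 counts. In Dorsal against Mesenchymal 1 was apart without cells sharing an index with the deepest cell.

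Of 108 alternative levels, 84 lay within the counting limits, and no fold called by its limits changed sign. The ratio of Ventral to HSC for Adra2b, whose limits include 1, was 1.52 with odd and 0.574 with even i7 numbers. The Adra1d level in Mesenchymal was 9.67 CPM without the deepest cell, 9.91 without the deepest 5% of cells, 6.94 without its top cell and 9.94 with totals that leave out Dock10 and Cep97. Adra2b in HSC was 1.5 CPM without the 5% deepest cells, 1.46 without cells sharing an index with the deepest and 0.715 without its top cell. In Dorsal it was 2.05, 2.20 and 2.19 CPM without cells sharing an index, with even i7 numbers and without its top cell. In Ventral it was 1.55 CPM without the deepest cell, 1.85 with odd and 0.664 with even i7 numbers and 1.04 without its top cell, and in Mesenchymal 0.926 with cells weighted equally. Adrb3 in HSC was 0.471 CPM with cells weighted equally. In Ventral it was 1.20 without the deepest cell, 1.44 without the 5% deepest and 0.692 without its top cell. In Mesenchymal it was 2.62, 2.55, 1.57, 1.52 and 2.49 CPM without the 5% deepest, in cells of odd and even i7 number, without its top cell and with equal weights. The cause was not tested.

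Shares of positive cells moved most with the threshold. At 1 count, Adra1d was positive in 30.4% of Mesenchymal cells, Adra2b in 15.6%, 27.2%, 25% and 14.5% of HSC, Dorsal, Ventral and Mesenchymal cells, and Adrb3 in 9.38%, 7.61%, 15% and 23.2%. At 10 counts, Adra2b was positive in 0% of HSC and 1.09% of Dorsal cells, and Adrb3 in 0% of Dorsal, 0% of Ventral and 1.45% of Mesenchymal cells. Thinned to 100000 counts, Adra1d was positive in 9.09% of Mesenchymal cells, Adra2b in 0% of HSC and Dorsal, and Adrb3 in 0% of Dorsal, Ventral and Mesenchymal. Without thinning, Adra2b was positive in 16.1% of Dorsal and 5.62% of Ventral cells, and another random draw gave Adrb3 in 0% of Dorsal and Ventral. By Spearman rho, 1 of the 5 genes most like each receptor stayed among the top 5. Of 192 list counts 35 moved by over 1.5 times, as did 27 of 102 shares of marker-positive cells beyond their limits.

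Depth limits all of this: at these levels a share near 0 in thinned cells is a limit of detection, and p-values could not be had from 1 sample a group.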

Other observations

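In the HSC group, 19 of 65 cells had at least 1 count of Adra2b. The 55 cells with Procr, the gene of the sorting marker EPCR, had 1.49 CPM of Adra2b and the other 10 cells 0.228 CPM, and without the cell with the most Adra2b counts these were 0.877 and 0.228 CPM. The 45 cells with Gata2, a transcription factor of haematopoietic progenitors, had 1.48 CPM and the other 20 cells 0.204 CPM, or 0.878 and 0.204 CPM without that cell. These markers were picked from 16 after the values were seen.

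In the Dorsal group, the 28 cells with Kit, the stem cell factor receptor, had 4.04 CPM of Adra2b and the other 65 cells 1.84 CPM, or 4.04 and 1.39 CPM without the cell with the most Adra2b counts. At equal depth 3 of 22 Kit-positive and 2 of 70 Kit-negative cells were positive for Adra2b. The 13 cells with Myb, a transcription factor of progenitors, had 5.82 CPM and the other 80 cells 1.94 CPM, or 5.82 and 1.57 CPM without that cell, but at equal depth 0 of 7 Myb-positive and 5 of 85 Myb-negative cells were positive for Adra2b. In the Mesenchymal group, the 57 Kit-positive cells had 11.1 CPM of Adra1d and the other 31 cells 4.05 CPM, or 8.37 and 4.05 CPM without the cell with the most Adra1d counts, and 12 of the 13 thinned Adra1d-positive cells were positive for Kit, beside 58% of all 69 cells. Kit and Myb were picked after the values were seen. Kit was itself at 89.7 CPM in Mesenchymal and 27.7 CPM in Dorsal.

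The 6 Mesenchymal cells without Prrx1 held 50.1 of the 138.2 Adrb3 counts of their group, a level of 10.2 CPM against 1.39 CPM in the other 82 cells. Without the cell with the most Adrb3 counts, which was 1 of them, the levels were 3.61 and 1.39 CPM. The next cell of the group had 14.3 counts, so a single further cell can set such a level. This split was picked after the values were seen and has fewer than 10 cells on 1 side, so no difference is read from it.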
